A study of Mus musculus with 4 samples.

Results

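The circadian clock genes Per1, Per2, Per3, Cry1, Cry2, Arntl, Clock, Nr1d1, Nr1d2 and Dbp were followed in mouse prostate. They were chosen by name, as every non-control probe whose gene name on the array was that of a member. This gave 18 probes for the 10 genes, of 41174 probes and 27974 genes in all. All mice were males of 8 weeks, held on a defined diet and kept without food overnight before gavage. C57BL/6 mice received olive oil or 600 mg/kg of γ-TmT, a mixture of tocopherols (forms of vitamin E) rich in the gamma form and called TmT here. TRAMP mice, which carry the early genes of SV40 under the rat probasin promoter and so express them in prostate epithelium, received the same oil or the same dose of TmT. Prostates were taken 12 h after dosing from 3 mice per group. Each of the 4 groups had 1 array, and the labels do not state whether an array held RNA of 1 mouse or of a pool. The labels give neither the strain background of the TRAMP mice nor the clock hour of dosing or collection. A difference between groups in the hour of collection was therefore not tested.

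The mammalian clock is a loop of transcription and feedback that runs in nearly every tissue. CLOCK and ARNTL (also called BMAL1) bind E-box sequences and activate the Per, Cry, Nr1d1, Nr1d2 and Dbp genes. The PER and CRY proteins then repress CLOCK and ARNTL, and the nuclear receptors encoded by Nr1d1 and Nr1d2 repress Arntl through ROR elements. Fasting, feeding and glucocorticoids shift the clock of peripheral organs, and Per1 is a known target of the glucocorticoid receptor.

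Promoter sequence of the clock genes was searched for the sites through which the loop is wired, and the stretches that held a match are shown. The RefSeq promoter table (assembly GRCm38.p6), with 250 bases before to 50 bases after each start, held 13 windows for 9 of the 10 genes and no entry for Per2. Matches were counted on both strands, and no match in a member window overlapped another. The E-box CACGTG lay in 2 member windows, those of Per1 and Cry1, against 7.15% of all 32851 windows. The D-box (TTATGTAA or TTACGTAA), which DBP binds, lay in 1 window, that of Per3, where it occurred at 2 places, against 1.06% of all windows. The ROR element (TAGGTCA or TGGGTCA) lay in 1 window, an Arntl window, against 6.45% of all windows. The cyclic AMP element TGACGTCA lay in 0 member windows, against 1.79% of all windows. A match describes the letters of a window and not the binding of a factor. The stretches below are written 5′ to 3′ on the strand of the gene, with the matched motif in capitals. The Per1 stretch is chr11:69098733-69098832 on the plus strand, the Cry1 stretch is chr10:85185065-85185164 on the minus strand, the Per3 stretch is chr4:151044796-151044915 on the minus strand and the Arntl stretch is chr7:113207529-113207558 on the plus strand.
Per1: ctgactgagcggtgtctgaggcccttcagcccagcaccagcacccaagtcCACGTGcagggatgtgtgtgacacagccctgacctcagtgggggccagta
Cry1: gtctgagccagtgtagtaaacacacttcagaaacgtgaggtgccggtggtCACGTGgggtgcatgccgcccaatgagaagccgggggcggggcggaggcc
Per3: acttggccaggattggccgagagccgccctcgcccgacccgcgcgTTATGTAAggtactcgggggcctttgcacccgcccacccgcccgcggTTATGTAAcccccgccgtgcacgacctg
Arntl: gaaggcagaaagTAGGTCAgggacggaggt

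A level here is the log2 signal of a gene's brightest probe minus the log2 of the 75th percentile of its array, so a difference of 1 is a 2-fold difference. Levels are given in the order C57BL/6 oil, C57BL/6 TmT, TRAMP oil and TRAMP TmT. The ± after a difference is the spot error of the scanner software, which covers the measurement of the spots and not the difference between mice. With 1 array per group, no difference between 2 arrays has a replicate check. Probes of different genes hybridise differently, so levels are compared between arrays and not between genes. The share of spots well above background ranged from 63.9% on the TRAMP TmT array to 74.1% on the C57BL/6 oil array, and the 75th percentile of signal was lowest on the TRAMP TmT array, at 71.3 against 118 to 161 on the others. All 10 markers of prostate luminal epithelium, Pbsn among them, were well above background on all 4 arrays. In bulk tissue, fewer cells of a type and less RNA per cell cannot be told apart.

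Clock, the steadier partner of the activator pair in most tissues, gave probe-dependent values here. Its brightest probe (mm9 chr5:76641377-76641436) read 1.42, 1.36, 1.55 and 1.12. The TRAMP TmT array held the lowest value, and the 4 arrays spanned 0.43 log2 units. TRAMP was 0.13 ± 0.20 above C57BL/6 after oil and -0.24 ± 0.20 apart after TmT. TmT against oil was -0.06 ± 0.20 in C57BL/6 and -0.43 ± 0.20 in TRAMP. Other Clock probes read well above background gave TmT differences as far as -1.44 in C57BL/6 and -1.60 in TRAMP, and the mean over the 4 probes gave -0.67 and -0.91.

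Arntl, the rhythmic partner of the pair, was dim. Its 1 probe (mm9 chr7:120456978-120457037) read -2.63, -3.05 and -3.22 on the first 3 arrays, and on the TRAMP TmT array it read -5.76 and was not well above background. TRAMP was -0.59 ± 0.24 from C57BL/6 after oil, and TmT was -0.42 ± 0.25 from oil in C57BL/6. On the TRAMP TmT array the level allows only a bound, computed against the lowest signal well above background there. By that bound Arntl was at least 1.39-fold lower than in C57BL/6 after TmT and at least 1.24-fold lower than in TRAMP after oil. The readings themselves differed by -2.70 ± 1.37 and -2.54 ± 1.37. Bounds here leave the spot error out, so with an error this large they are not firm for Arntl. With normexp background correction both Arntl differences turned direction, to 0.22 and 0.25. The normexp offset of 50 exceeds the median signal of every array, 15.1 to 33.2, so for a dim probe normexp does not settle the direction. Npas2, which can stand in for Clock, read -3.86, -3.61, -4.31 and -3.33.

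**Figure D1:**
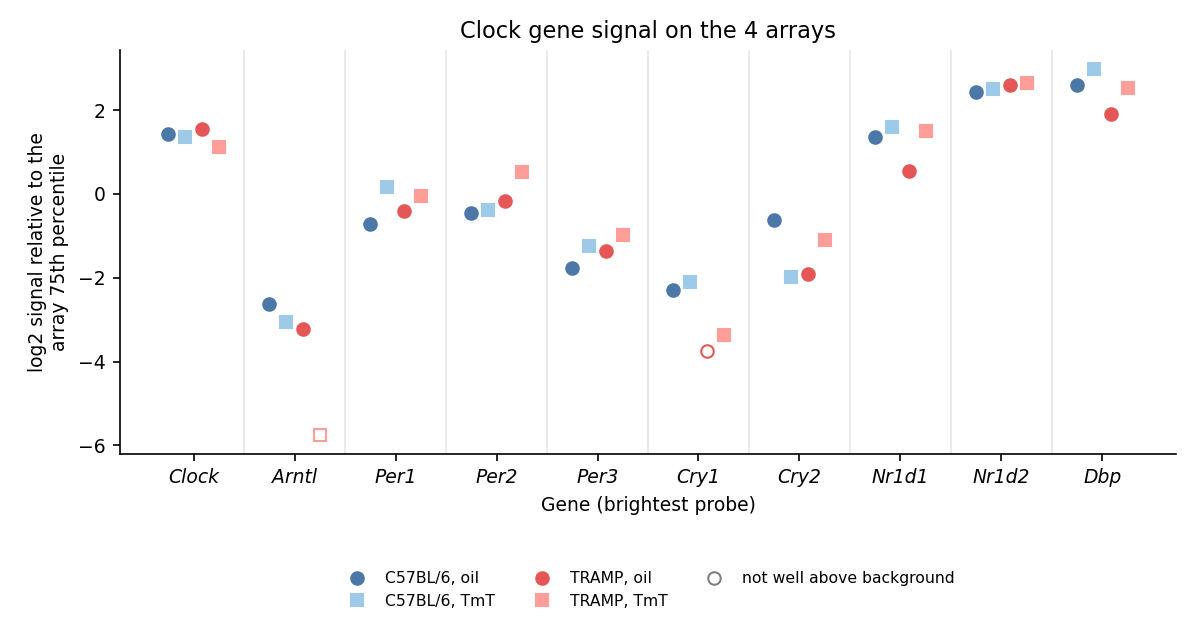
Log2 signal relative to the array's 75th percentile (vertical axis) of the brightest probe of each clock gene (horizontal axis) on the 4 arrays; circles are oil, squares TmT, blue C57BL/6, red TRAMP, and open symbols were not well above background. The span over the 4 arrays was smallest for Nr1d2, at 0.22, and, among genes well above background on all 4 arrays, largest for Cry2, at 1.37. Arntl and Cry1 each have 1 open symbol, whose level is uncertain.

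The Period genes code for the PER repressors, and by their brightest probes all 3 had their lowest level on the C57BL/6 oil array. Per1 (mm9 chr11:68922878-68922937), whose window holds the E-box shown above, read -0.72, 0.16, -0.41 and -0.04. For Per1, TmT was above oil by 0.88 ± 0.21 in C57BL/6 and by 0.37 ± 0.21 in TRAMP. Without the scanner software's detrending across the slide the TRAMP difference was -0.07, so the higher Per1 in TRAMP after TmT rests on that step, and with normexp background correction it was -0.08. Per2 (mm9 chr1:93313046-93313105) read -0.46, -0.39, -0.16 and 0.52. The high Per2 value was that of TRAMP after TmT, 0.91 ± 0.21 above C57BL/6 after TmT and 0.68 ± 0.21 above TRAMP after oil, while TmT against oil was 0.07 ± 0.21 in C57BL/6. Per3 (mm9 chr4:150379256-150379315), with the pair of D-boxes shown above, read -1.76, -1.23, -1.35 and -0.98. For Per3, TmT was above oil by 0.53 ± 0.21 in C57BL/6 and 0.38 ± 0.21 in TRAMP, and TRAMP was above C57BL/6 by 0.40 ± 0.21 after oil and 0.25 ± 0.21 after TmT.

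The cryptochromes, the stronger repressors of CLOCK and ARNTL, held every clock gene difference of 2-fold or more that the brightest probes measured on both arrays. Cry2 (mm9 chr2:92244363-92244422) read -0.61, -1.98, -1.90 and -1.10. The C57BL/6 oil array was the highest for Cry2, and TmT and TRAMP each went with a lower level when taken alone. TmT was 2.58-fold below oil in C57BL/6 (-1.37 ± 0.22), and TRAMP was 2.44-fold below C57BL/6 after oil (-1.29 ± 0.18). Among TRAMP mice the direction was the other one, with TmT 0.80 ± 0.19 above oil, and after TmT TRAMP was 0.88 ± 0.22 above C57BL/6. The TmT difference in TRAMP minus that in C57BL/6 was 2.17 ± 0.29 for Cry2, a contrast of 4 single arrays that was not tested.

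A second Cry2 probe did not show these differences. It lay elsewhere in the same transcript, read -3.59, -3.93 and -3.45 on the first 3 arrays and was not well above background on the TRAMP TmT array. It gave -0.34 ± 0.39 for TmT in C57BL/6 and 0.14 ± 0.30 for TRAMP against C57BL/6 after oil. The spatial detrending also bore on the brighter Cry2 probe. The software had divided its signal by factors of 0.71, 0.89 and 0.43 on the first 3 arrays and had applied no such step on the TRAMP TmT array. Before detrending, the Cry2 differences were -1.05 for TmT in C57BL/6 and 2.01 for TmT in TRAMP, and between the lines they were -2.00 with oil and 1.05 with TmT, so the directions were the same and the sizes were not. With normexp the TmT differences were -0.39 in C57BL/6 and 0.84 in TRAMP, and with the mean of both probes they were -0.85 and 0.30.

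Cry1 (mm9 chr10:84606495-84606554), with the E-box shown above, was lower on the TRAMP arrays by its brighter probe. It read -2.29 and -2.11 in C57BL/6, -3.76 in TRAMP after oil, where it was not well above background, and -3.37 in TRAMP after TmT. After TmT the TRAMP level was 2.39-fold lower (-1.26 ± 0.34). After oil it read 2.77-fold lower (-1.47 ± 0.36), a value from a spot not well above background and not a bound. With normexp these differences were 0.10 after TmT, the other direction, and -0.29 after oil. Cry1 was dim as well, so normexp with its offset of 50 does not settle the direction here either. TmT against oil was 0.18 ± 0.23 in C57BL/6. The other Cry1 probe was well above background on all 4 arrays, at -2.85, -3.19, -3.35 and -3.15. By that probe TRAMP was -0.50 ± 0.28 from C57BL/6 after oil and 0.04 ± 0.34 after TmT, and TmT in TRAMP was 0.20 ± 0.35 from oil, so the lower Cry1 after TmT was seen with 1 of 2 probes.

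Nr1d1 and Nr1d2 code for REV-ERBα and REV-ERBβ, the haem-binding repressors of Arntl. Nr1d1 (mm9 chr11:98633332-98633391) read 1.37, 1.60, 0.54 and 1.51, and the TRAMP oil array stood apart as the low one. Its level there was -0.83 ± 0.20 from C57BL/6 oil, and TmT was 0.97 ± 0.20 above oil in TRAMP against 0.23 ± 0.20 in C57BL/6. A second Nr1d1 probe gave -0.80 for TRAMP after oil but 0.23 for TmT in TRAMP and -0.52 for TmT in C57BL/6. The third gave 0.34 for TRAMP after oil and -0.64 for TmT in TRAMP, the other direction in both. Nr1d2 (mm9 chr14:19037253-19037312) was the steadiest clock gene over the arrays, at 2.44, 2.50, 2.59 and 2.65, and its 4 differences ran from 0.06 to 0.15, each below its spot error of 0.20.

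Dbp, a PAR bZIP activator of clock output genes and itself a classic E-box target, had differences under 2-fold between lines and between treatments on these single arrays. Its probe (mm9 chr7:52965265-52965324) read 2.59, 2.99, 1.91 and 2.54. Within each line the TmT array was the higher, by 0.41 ± 0.20 in C57BL/6 and 0.63 ± 0.20 in TRAMP, and within each treatment the TRAMP array was the lower, with differences of -0.68 ± 0.20 after oil and -0.45 ± 0.20 after TmT. With normexp background correction the TmT difference was 0.14 in C57BL/6 and 0.06 in TRAMP. Without detrending it was 0.26 in C57BL/6 and 0.35 in TRAMP. Profiles were compared with 3344 named genes, well above background on all 4 arrays, that varied by an SD of at least 0.5. Among these, the centred profiles nearest to that of Dbp were those of Tmem184a and Mapk8ip2, at Euclidean distances of 0.148 and 0.151. Dbp itself varied by less than that SD. Genes as steady as Dbp were thus not candidates, and nearer profiles may lie among them. The nearest to Arntl were A4gnt, Ssr2 and Hdac2, at 0.129, 0.402 and 0.559. The Arntl profile is dominated by its TRAMP TmT value, which was not well above background. Genes that failed the background criterion there, as Arntl did, were not candidates.

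**Figure D2:**
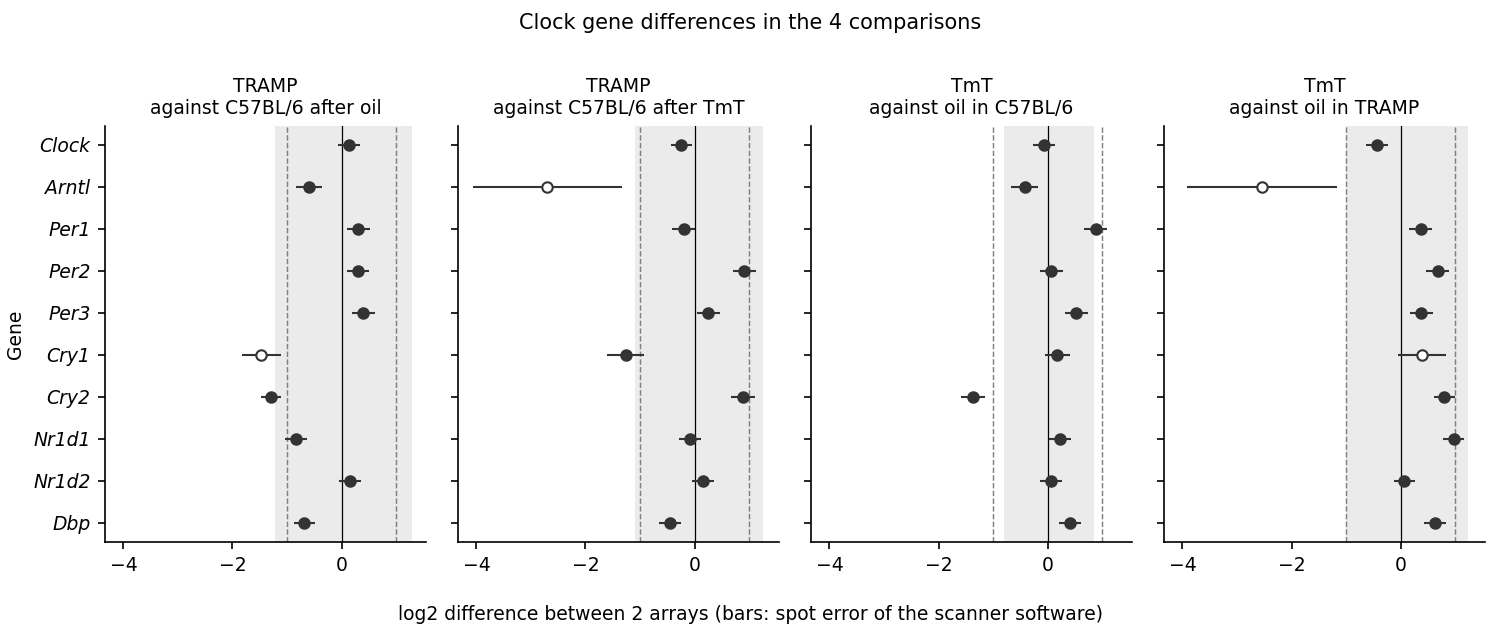
Log2 difference between 2 arrays (horizontal axis) for each clock gene (rows) in the 4 comparisons (panels); bars are the spot error, open symbols involve an array where the probe was not well above background, dashed lines mark 2-fold and grey bands span the 5th to 95th percentile of all genes measured. Cry2 after oil and in C57BL/6 and Cry1 after TmT are the filled symbols past 2-fold, at -1.29, -1.37 and -1.26.

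Counted over the 10 genes, few differed by 2-fold. TRAMP against C57BL/6 after oil had 1 of 9 measured genes lower by 2-fold or more (Cry2) and 0 higher, where 15.6% of 18920 genes measured on both arrays differed that much, 7.84% of them lower and 7.74% higher. TRAMP against C57BL/6 after TmT had 1 of 9 lower (Cry1) and 0 higher, where 14.5% of 17251 genes differed by 2-fold, 6.09% lower and 8.45% higher. TmT against oil in C57BL/6 had 1 of 10 lower (Cry2) and 0 higher, against 5.74% of 18662 genes, 2.63% lower and 3.12% higher. TmT against oil in TRAMP had 0 of 8 in either direction, against 13.5% of 17465 genes, 8.66% higher and 4.86% lower. At these numbers the shares of clock genes past 2-fold lie near the background. The 2 Cry2 counts share the C57BL/6 oil array and so its error.

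By direction, the clock genes lay on both sides of 0 between the lines. After oil 5 of 9 were higher in TRAMP with a median of 0.13, and 4 were lower, against a median of -0.07 with 45.5% higher and 54.5% lower over all genes. After TmT 4 of 9 were higher and 5 lower with a median of -0.09, against 0.01 with 50.6% and 49.4%. For TmT against oil, 7 of 10 were higher and 3 lower in C57BL/6 with a median of 0.12, against 0.02 with 52.0% and 48.0% of all genes. In TRAMP 7 of 8 were higher after TmT and 1 was lower, with a median of 0.50, against 0.10 with 55.9% and 44.1%. With Arntl and Cry1 at their measured values the TRAMP median over all 10 genes was 0.38. The TRAMP count depended on the processing. With normexp, Per1 (-0.08) and Nr1d2 (-0.32) were also lower and Dbp was at 0.06, against an all-gene median of 0.15. Without detrending, Per1 (-0.07) and Nr1d2 (-0.06) were also lower, against an all-gene median of 0.05.

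The 2 TmT comparisons share no array, so their signs could be set side by side for the 8 genes well above background on all 4 arrays. Per1, Per2, Per3, Nr1d1, Nr1d2 and Dbp, 6 of 8, were higher after TmT in both lines, a direction that 31.3% of 16961 genes showed. However, Nr1d2 left this count with median centring of the arrays. Per1, Per2 and Nr1d2 left it without detrending or with normexp, and Nr1d1 left it with the mean over all probes. Per3 and Dbp were in the count under each of these settings. Clock was lower in both lines, as were 24.4% of all genes, and Cry2 went opposite ways, as did 44.3%. Between the lines, Per2, Per3 and Nr1d2 were higher in TRAMP under both treatments (29.2% of genes). Nr1d1 and Dbp were lower under both (34.0%), and Per1, Cry2 and Clock had opposite signs (36.8%). Per2 also had opposite signs with the mean over all probes, and Nr1d2 did with normexp. The count of genes higher in both lines after TmT was 6 of 8 with quantile normalization (31.4% of all genes), 5 of 8 with median centring (31.6%) and 5 of 9 with the mean over all probes (29.6%). It was 3 of 8 without detrending (29.3% of all genes) and 3 of 8 with normexp (41.6%), which is no excess over all genes with normexp.

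**Figure D3:**
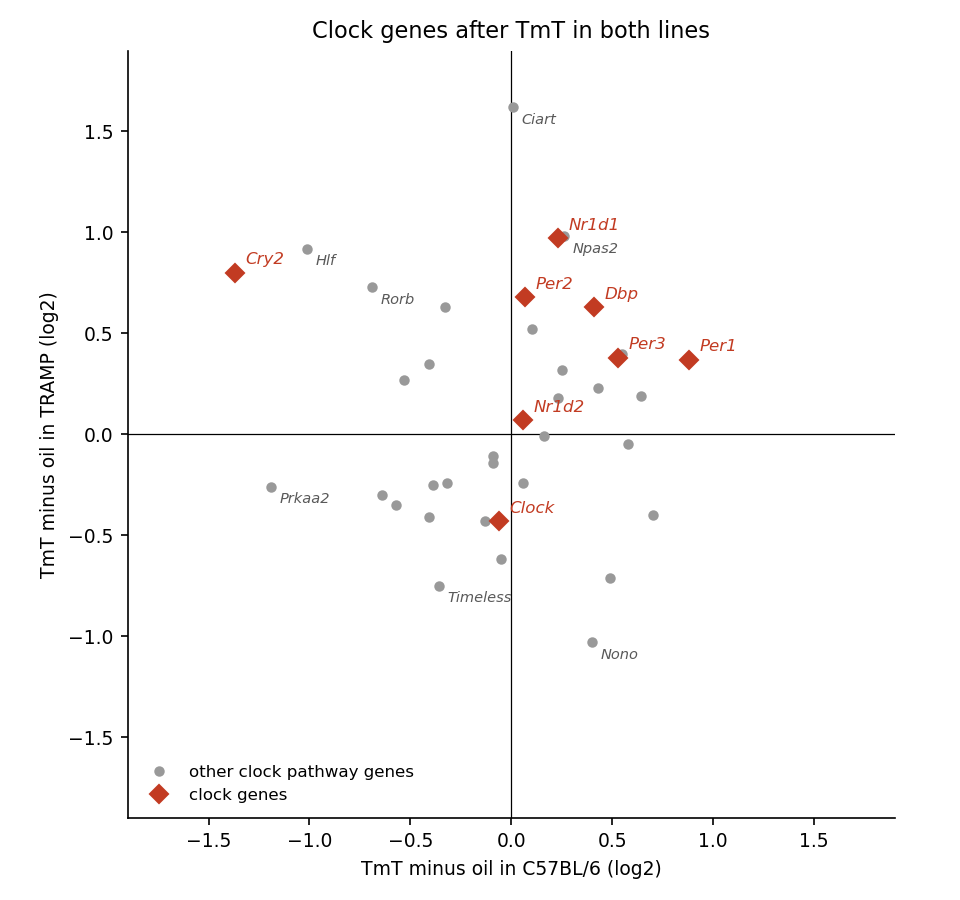
TmT minus oil as a log2 difference in C57BL/6 (horizontal axis) and in TRAMP (vertical axis), 1 point per gene well above background on all 4 arrays; red diamonds are the clock genes and grey points the other clock pathway genes. The 6 red diamonds of Per1, Per2, Per3, Nr1d1, Nr1d2 and Dbp lie in the upper right quadrant, although Nr1d2 leaves it with median centring, Per1, Per2 and Nr1d2 without detrending or with normexp, and Nr1d1 with the mean over all probes, and Cry2 lies at the upper left, at -1.37 and 0.80.

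A limma fit with genotype and treatment as additive terms over all 4 arrays left 1 residual degree of freedom, the interaction, as error, and was adjusted by Benjamini-Hochberg over 19921 genes. No clock gene passed an adjusted p of 0.05 for genotype (0 of 10, against 27 genes or 0.136% of all) or for treatment (0 of 10, against 0 genes or 0.0%). At an unadjusted p under 0.05, limma gave 2 clock genes for genotype, where 15.1% of all genes passed, and 1 for treatment, where 6.28% did. The 2 were Cry1, with TRAMP minus C57BL/6 at -1.37 ± 0.32 (SE, limma, unadjusted p = 0.00687, adjusted p = 0.167), and Arntl at -1.65 ± 0.55 (limma, unadjusted p = 0.0276, adjusted p = 0.269). Arntl was also the 1 gene for treatment, with TmT minus oil at -1.48 ± 0.55 (limma, unadjusted p = 0.0403, adjusted p = 0.778). Both genes enter this fit with a value that was not well above background on 1 array. For Dbp the fit gave -0.57 ± 0.33 for genotype (limma, adjusted p = 0.459) and 0.52 ± 0.33 for treatment (limma, adjusted p = 0.783). For Per1 it gave 0.63 ± 0.34 for treatment (limma, adjusted p = 0.778), and for Cry2, whose differences oppose each other, -0.20 ± 0.56 for genotype (limma, adjusted p = 0.894).

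Where a gene had several probes, they often differed in direction. Clock, Per2, Cry1, Cry2 and Nr1d1 had 13 probes between them. In 16 pairs of a gene and a comparison at least 2 probes were well above background on both arrays, and in 5 of these all probes pointed the same way. The 4 Clock probes show the range. TmT against oil in C57BL/6 was -0.06, -0.40, -0.76 and -1.44 by probe, all in the same direction. In TRAMP the 3 probes measured on both arrays gave -0.43, -1.60 and 0.17. For Per2 the second probe gave -0.39 for TRAMP after oil, where the brightest probe gave 0.30. For TRAMP after TmT the second probe gave -0.07 and the brightest 0.91, and for TmT in TRAMP they gave 0.34 and 0.68. Probes of a gene can cover different transcript forms, and which forms were present was not tested.

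**Figure D4:**
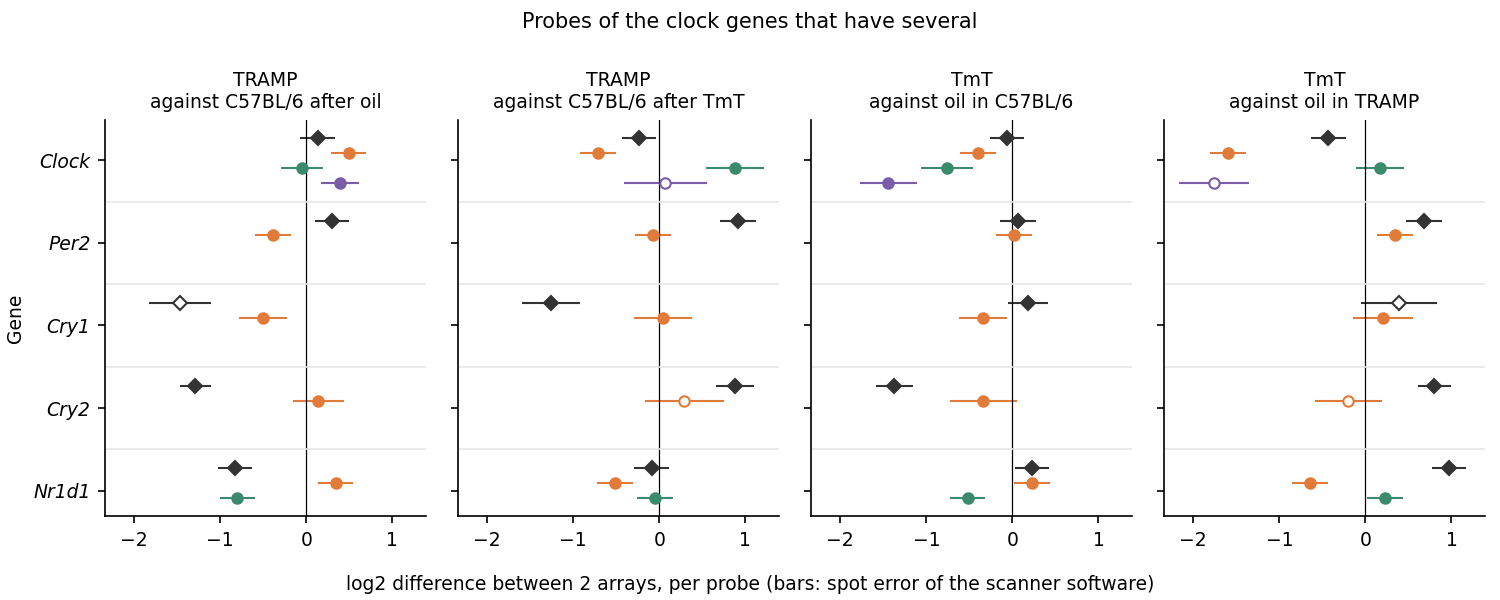
Log2 difference between 2 arrays (horizontal axis) for each probe of the 5 clock genes with several probes (rows), in the 4 comparisons (panels); black diamonds are the brightest probe, coloured circles the others, bars the spot error, and open symbols were not well above background on both arrays. The Cry2 diamond in C57BL/6 is at -1.37 and the second Cry2 probe at -0.34.

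The other genes of the clock pathway, 32 in all and each found on the array, gave 0 calls in the limma fit after adjustment. They comprise relatives and output factors (Npas2, Tef, Hlf, Ciart), nuclear receptors (Rora and Rorb among them), kinases, ubiquitin ligases and metabolic regulators. TRAMP against C57BL/6 after oil had 3 of 30 measured genes higher by 2-fold or more and 1 lower, with a median of 0.04, against 7.74% and 7.84% of all genes. Timeless, a replication fork factor named after a fly clock gene, was higher by 2.27 ± 0.21, Nono, an RNA-binding partner of the PER proteins, by 1.45 ± 0.16, and Nfil3, a repressor at D-boxes, by 1.09 ± 0.20. Rorb was the lower one, at -1.17 ± 0.22. After TmT, 3 of 30 were higher in TRAMP and 0 lower, with a median of 0.17, against 8.45% and 6.09% of all genes. These counts lie near the shares over all genes. The higher ones after TmT were Timeless at 1.88 ± 0.22, the ubiquitin ligase subunit Fbxw11 at 1.35 ± 0.25 and Tipin, the partner of Timeless, at 1.05 ± 0.21. Timeless read -1.98, -2.33, 0.29 and -0.46, and limma gave a genotype difference of 2.07 ± 0.33 (adjusted p = 0.0893).

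The same arrays also differed in markers of proliferating cells. The 5 markers (Mki67, Top2a, Ccnb1, Mcm6 and Uhrf1) were each 2-fold or more higher in TRAMP under both treatments, with medians of 3.22 after oil and 2.29 after TmT. Their summed linear level was 17.2, 18.4, 191 and 85.5, and their part in the Timeless and Tipin values was not tested. Fbxl21, the ubiquitin ligase subunit that binds cryptochromes, failed the background criterion on both TRAMP arrays. After oil its dim reading there was -1.71 ± 0.54 from C57BL/6, a value and not a bound. After TmT it was at least 3.66-fold lower in TRAMP. In C57BL/6 it was 1.14 ± 0.24 higher after TmT.

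Among the same 32 genes, TmT against oil in C57BL/6 had 1 of 31 higher (Fbxl21) and 2 lower, with a median of -0.05, against 3.12% and 2.63% of all genes. The lower ones were Hlf, a PAR bZIP factor like DBP, at -1.01 ± 0.20 and Prkaa2, a catalytic subunit of the AMP-activated kinase, at -1.19 ± 0.32. Hlf read 1.72, 0.71, 0.75 and 1.67, low on the same 2 arrays as Cry2. In TRAMP, 1 of 30 was higher, Ciart, a repressor of CLOCK and ARNTL that the array lists as Gm129, by 1.62 ± 0.23, and 1 was lower, Nono, at -1.03 ± 0.16, with a median of -0.08 over the list, against 8.66% and 4.86% of all genes. Tef, the third PAR bZIP gene, read 0.22, 0.48, 0.05 and 0.37. Arntl2, the paralogue of Arntl, was well above background only on the C57BL/6 TmT array, at least 2.52-fold higher than in C57BL/6 after oil.

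The 13 genes driven through E-boxes (the Per, Cry and Nr1d genes, Dbp, Tef, Hlf, Ciart, Bhlhe40 and Bhlhe41) had a median of 0.52 for TmT in TRAMP, where 11 of 12 measured genes were higher, against a median of 0.10 and 55.9% higher over all genes. In C57BL/6 the median was 0.18, with 10 of 13 higher, against 0.02 and 52.0%. Between the lines the median was -0.32 after oil, with 5 of 12 higher, against -0.07 and 45.5%, and 0.15 after TmT, with 7 of 13 higher, against 0.01 and 50.6%. The activators Arntl, Clock and Npas2 had a median of -0.45 between the lines after oil and of -0.06 for TmT in C57BL/6, over 3 measured genes each. Over the 2 measured with TRAMP TmT, the median was 0.02 between the lines and 0.28 for TmT in TRAMP. The E-box group overlaps the clock genes in 8 members, and its other members are all among the other clock pathway genes above. It is therefore no separate evidence on either. This group was not recomputed under the alternatives, and for TmT in TRAMP its members Per1 and Nr1d2 changed sign with normexp and without detrending.

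The TRAMP oil array also differed in markers of other tissues. All 7 adipocyte markers measured on both oil arrays were 2-fold or more higher there than in C57BL/6, with a median of 2.67, and TmT against oil in TRAMP had all 5 measured markers lower with a median of -3.37. The summed linear adipocyte level was 44.2, 23.7, 250 and 29.1 over the 8 markers, of which Lep was not well above background on any array. The summed level of the luminal markers was 1250, 1650, 560 and 1070, and that of the 6 fibroblast markers was 95.3, 78.3, 40.6 and 79.7, both lowest on the TRAMP oil array. Smooth muscle (161, 183, 106 and 206), skeletal muscle (317, 289, 170 and 313), endothelium (6.56, 5.38, 3.19 and 5.44) and basal epithelium (14.9, 13.2, 7.48 and 13.2) were lowest there too. Leukocyte markers summed to 5.97, 3.64, 5.15 and 4.93 and seminal vesicle markers to 1450, 1740, 1450 and 1910. The part of this tissue make-up in the clock gene values was not tested.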

How the data were processed

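Total RNA of 4 prostate samples was labelled with Cy3 and hybridised to Agilent mouse arrays of 1 colour on 1 slide with 1 scan time. The deposited intensity values are the processed signals of Agilent Feature Extraction 10.2.1.3, background-subtracted and spatially detrended, per the file headers, and the headers record no multiplicative detrending on the TRAMP TmT array. The deposited value table held the same intensities, linear and not centred, with medians of 30.2, 21.3, 25.3 and 13.8.

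Control and outlier spots were left out, spots of a probe were averaged after log2 and subtraction of the log2 75th percentile, and a gene was its brightest probe. Spots well above background were 74.1%, 68.1%, 70.4% and 63.9% of 43379, and the number of arrays limits the precision. Pairs of arrays were compared for genes well above background on both, as values without a test. limma 3.58.1 (R 4.3.3), tested on simulated data, fitted every gene that cleared background on 2 or more arrays. RefSeq (GRCm38.p6) accessions updated 4060 symbols among 24844 matched probes, and Zbtb16 of the glucocorticoid list was not matched. Probe positions are on mm9, and the exon under a probe was not looked up. Named beside the 10 genes were pathway and glucocorticoid-responsive genes at least 2-fold different (at most 8 per list and comparison) and the 3 nearest profiles to Dbp and Arntl, of which 1 for Dbp is not reported here. The members and lists were chosen with earlier results of these data known. Alternatives were quantile and median scaling, no detrending, normexp (offset 50), the mean over probes, no background filter, the value table and other fold thresholds.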

Additional observations from a re-analysis of the deposited data

Results flagged for a closer look

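Cry2 was singled out because the 2 lines differed in opposite directions after TmT. The TmT difference of its brightest probe in TRAMP minus that in C57BL/6 was 2.17 log2 units, from 0.80 and -1.37. The line difference after TmT minus that after oil is the same contrast and so is also 2.17, from 0.88 and -1.29. The difference was not tested, since each value is 1 array. The contrast was 1.23 with normexp, 1.16 with the mean over both probes and 3.06 without detrending. The second Cry2 probe gave -0.34 in C57BL/6 and was not well above background on the TRAMP TmT array, so it gives no measured value for the contrast.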

How the results depend on the processing

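Of 320 clock gene differences recomputed under the alternatives, 120 could not move, since the values or the probe were the same by construction. Of the other 200, 153 moved by no more than the spot error, or crossed 0 within it. In all 18 changed sign, 14 of them from under 2-fold, among these Per1 and Nr1d2 for TmT in TRAMP. The 4 from 2-fold or more were Cry1 for TRAMP after TmT, at 0.10 with normexp and 0.04 with the brightest probe among those well above background on most arrays (chosen after seeing the data), and Arntl with normexp, at 0.22 for TRAMP after TmT and 0.25 for TmT in TRAMP. The normexp offset of 50 exceeds the median signal of every array, so normexp does not settle the direction for these dim probes. The cause of the turns was not tested. Clock genes past 2-fold numbered 1, 1, 1 and 0 for TRAMP after oil, TRAMP after TmT, TmT in C57BL/6 and TmT in TRAMP. The shares over all genes were 15.6%, 14.5%, 5.74% and 13.5%. With normexp the counts were 0 in each of the first 3, against 5.99%, 4.44% and 0.959% of all genes. With the mean over all probes they were 0 there too, against 14.7%, 13.2% and 5.7%. Without detrending they were 2 for TRAMP after TmT (14.5% of all genes), 2 for TmT in C57BL/6 (6.13%) and 1 for TmT in TRAMP (14.3%). With no background filter they were 2 for TRAMP after oil (20.5%), 2 for TRAMP after TmT (19.3%) and 1 for TmT in TRAMP (22.4%). With the probe on most arrays TRAMP after TmT had 0, against 14.5%. A 1.5-fold threshold gave 4, 3, 2 and 4, against 36.6%, 36.9%, 20.8% and 35.8% of all genes, and a 3-fold threshold gave 0 in the first 3, against 5.22%, 3.70% and 1.14%. In the limma fit 0 clock genes passed under every alternative run, with lowest adjusted p between 0.149 and 0.299 for genotype and between 0.458 and 0.784 for treatment. Genotype calls over all genes were 27, against 44 with quantile normalization, 76 with median centring, 39 with no filter, 0 without detrending, 0 with the mean over probes and 555 higher with 829 lower under normexp. Treatment calls were 0 except under normexp, with 213 higher and 124 lower. Backgrounds marked as outliers were replaced by the array median for normexp. No paired analysis was possible because each group has 1 array, and leaving out an array leaves no residual degree of freedom. Low signal limits Arntl and Cry1 most.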

Other observations

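Glucocorticoid-responsive genes, a group whose hormone rises with fasting and resets peripheral clocks, were looked at beside Per1, with 11 of 12 matched. TmT against oil in C57BL/6, where Per1 was 0.88 higher, had 0 of 11 past 2-fold and a median of 0.01, against 5.74% of all genes past 2-fold. In TRAMP 2 were higher and 2 lower by 2-fold or more, with a median of -0.14, against 8.66% and 4.86% of all genes. The higher ones were the metallothioneins Mt1, by 1.25, and Mt2, by 1.53, and the lower ones were Pdk4, at -2.06, and Angptl4, at -3.30, which curb glucose oxidation and lipoprotein lipase. Adipocyte markers differed on the same arrays, with TmT below oil for all 5 measured (median -3.37), and their part in the Pdk4 and Angptl4 values was not tested. Between the lines 1 was higher and 3 lower in each treatment, against 7.74% and 7.84% of all genes after oil and 8.45% and 6.09% after TmT, with medians of 0.15 after oil and -0.13 after TmT, and Fkbp5, a chaperone of the glucocorticoid receptor, was the higher one in both, by 1.84 after oil and 1.26 after TmT. Dusp1, at -1.72, Mt1, at -2.14, and Mt2, at -1.89, were the lower ones after oil, and Pdk4, at -2.52, Angptl4, at -2.40, and Mt1, at -1.85, after TmT.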
